A study of Arabidopsis thaliana with 6 samples.

Results

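The OTP genes of Arabidopsis thaliana take their name from organelle transcript processing. Here 8 of them were followed in wild-type seedlings and in seedlings mutant for the chromatin remodeller PICKLE (PKL). A gene was included when its symbol was OTP followed by a number and a probe set on the array was paired with that gene alone. Of 10 genes with such a symbol in the gene table, 8 were measured this way, out of 13356 genes with a single-gene probe set; OTP51 and OTP82 were not analysed here. Each of the 8 genes had 1 probe set, so that taking the brightest per gene involved no choice.

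OTP proteins are encoded in the nucleus and belong to the pentatricopeptide repeat (PPR) family, whose members bind particular stretches of RNA in plastids and mitochondria. Some direct RNA editing, in which a C of the organelle transcript is turned into a U, and others are needed to remove introns from organelle transcripts. Many editing factors of the family end in a DYW domain, named after its last amino acids and related to deaminases. Mutants that lack one of these factors usually lose one or a few editing sites or one splicing event, and so affect single subunits of the photosynthetic or respiratory complexes or of organelle ribosomes and polymerases. The protein PKL is a CHD3-type ATPase that remodels chromatin.

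The Col-0 wild type was compared with the mutant pkl-1, which stands for 1 allele of PKL, and the plants had no treatment beyond seed sterilisation. Whole seedlings aged 14 days, grown on diluted Murashige and Skoog agar in constant light, gave 3 Affymetrix arrays of pkl-1 and 3 of wild type, and the labels call the arrays of a genotype biological replicates. Values are log2 signals made with GCRMA, which subtracts a background estimated from probe sequence. A signal reports how much transcript a probe set captured, and differences are pkl-1 minus wild type in log2 units, where 1 is 2-fold.

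Array medians lay between 5.04 and 5.14 log2 units, and the correlation of 2 arrays across probe sets was 0.985 or more for arrays of the same genotype and 0.9751 or more otherwise. Of the green-tissue markers, 3 of 20 were measured, with means over all arrays of 12.5 to 13.2 log2 units, the highest that of RCA, Rubisco activase, and of the root markers 3 of 17, with PYK10, a root beta-glucosidase, at 11.95, EXPA18 at 4.66 and EXPA7 at 3.73. Markers of both organs thus gave signal, although of the root markers only PYK10 lay above the median of all probe set means, 5.09. LHCB4.2, a photosystem II antenna gene, fell by 0.50 log2 units (limma adjusted p = 0.0355) and was the only marker of either list to pass the test; its part in the values below was not tested. In RNA of whole seedlings, fewer cells that express a gene and less RNA per cell cannot be told apart. No single-gene probe set carried the name PKL, so that the genotype labels could not be checked against the mutated gene.

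The OTP probe sets had mean signals under the median of all probe sets, and none passed the test for a difference between pkl-1 and wild type. The count was 0 of 8 with limma at an adjusted p under 0.05, where 540 of 22746 probe sets (2.37%) passed, and 1 of 8, OTP81, at an unadjusted p under 0.05, where 14.9% of all probe sets passed. The estimate was above 0 for all 8 genes, although only 7 were above 0 after quantile normalization and 5 to 8 with 1 array left out. Their median was 0.20 log2 units, beside 0.01 for all probe sets, of which 52.5% were above 0. Among the probe sets with mean signals under the lower quartile, 2.14 log2 units, 59.3% had estimates above 0. Only 2 of the 8 OTP probe sets lay under that quartile, and no share was computed at the levels of the others.

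All 8 OTP probe sets had means over the 6 arrays under the median of all probe set means, 5.09 log2 units, and those of OTP80 and OTP86 lay under the lower quartile. Of the genotype means, only that of OTP81 in pkl-1, 5.37, exceeded that median. GCRMA can compress differences at low signals, which was not tested here, so that a narrow interval bounds the measured signal rather than the amount of transcript. Within a genotype the standard deviation ran from 0.036 log2 units, for OTP86 in pkl-1, to 0.70, for OTP87 in pkl-1. Over all probe sets its median was 0.163 for pkl-1 arrays and 0.171 for those of wild type.

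**Figure D1:**
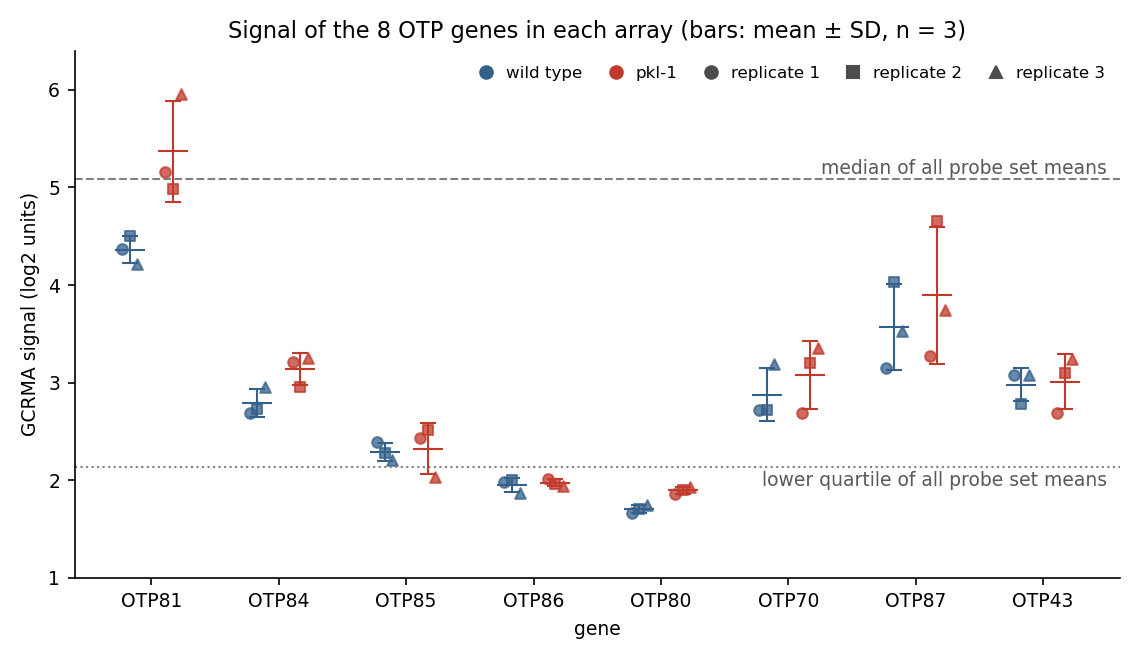
GCRMA signal in log2 units (vertical axis) of the 8 OTP genes (horizontal axis) in each array, with wild type in blue, pkl-1 in red and the symbol giving the replicate number; bars are means ± SD (n = 3) and grey lines mark the median and lower quartile of all probe set means. Only for OTP81 and OTP80, 2 of 8, do the 3 pkl-1 arrays all lie above the 3 wild-type arrays, beside 10.6% of all probe sets. OTP87 is highest in replicate 2 of both genotypes.

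OTP81 had the largest difference of the family. It is a plastid editing factor with a DYW domain, also known as QED1, that acts on several plastid transcripts, among them matK, accD and rpoB. Its signals were 5.16, 4.99 and 5.96 in pkl-1 replicates 1 to 3 and 4.37, 4.50 and 4.22 in wild type. Every pkl-1 array lay above every wild-type array, with a gap of 0.49 between the nearest, and pkl-1 replicate 3 stood highest. All pkl-1 arrays lay above all wild-type arrays in 10.6% of all probe sets.

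OTP81 averaged 5.37 ± 0.52 in pkl-1 against 4.36 ± 0.14 in wild type (SD, n = 3 each). The difference was 1.01 ± 0.27 log2 units (SE), or 2.01-fold, with a 95% interval from 1.298-fold to 3.11-fold that is not adjusted for the number of probe sets. It did not pass over all probe sets (limma adjusted p = 0.123); 1160 probe sets (5.1%) had an unadjusted p as low or lower. Over 13 other settings the adjusted p ran from 0.0662, with the replicate number as a block, to 0.253. The estimate was 0.71 without pkl-1 replicate 3 and 1.199 without pkl-1 replicate 2.

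**Figure D2:**
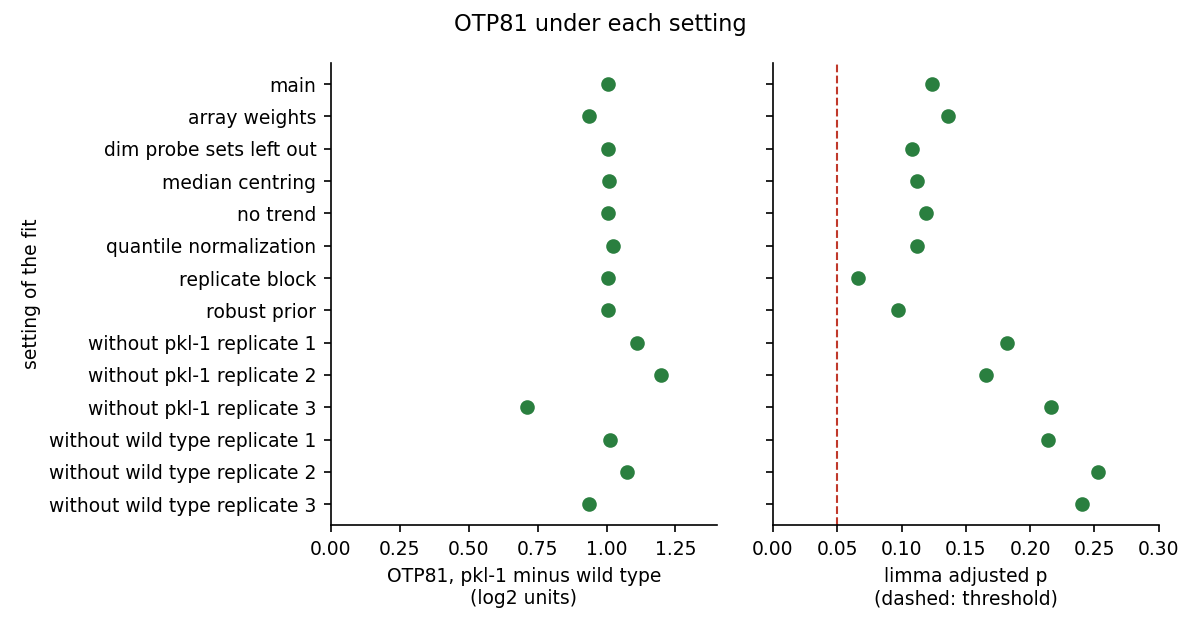
Estimated difference of OTP81 in log2 units (left) and its limma adjusted p (right) in the main fit and under 13 other settings, 1 per row. The estimate lies between 0.71 and 1.199 throughout, and every adjusted p is above the threshold of 0.05 (dashed line).

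The other plastid editing factors of the family differed less. OTP84, a DYW-type factor for sites in the plastid transcripts ndhB, ndhF and psbZ, was at 3.21, 2.95 and 3.25 in pkl-1 and at 2.69, 2.73 and 2.95 in wild type. The groups overlapped by 0.0016 log2 units, between pkl-1 replicate 2 and wild type replicate 3. The difference was 0.35 ± 0.16 (SE), with a 95% interval from -0.03 to 0.73 (limma adjusted p = 0.386).

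OTP80, which serves an editing site in the plastid ribosomal protein transcript rpl23, was at 1.86, 1.90 and 1.93 in pkl-1 and at 1.67, 1.71 and 1.74 in wild type. Every pkl-1 array lay above every wild-type array, as in 10.6% of all probe sets. The spread within each genotype was small, with standard deviations of 0.037 in both. The difference was 0.19 ± 0.09 (SE), with a 95% interval from -0.02 to 0.40 (limma adjusted p = 0.398), at signals under the lower quartile of the array.

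OTP85, required for a site in ndhD, a subunit of the plastid NDH complex, was at 2.43, 2.51 and 2.03 in pkl-1 and at 2.39, 2.28 and 2.21 in wild type. Its pkl-1 arrays lay on both sides of the wild-type arrays. The difference was 0.033 ± 0.16 (SE), with a 95% interval from -0.33 to 0.40.

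OTP86, which edits the transcript of the plastid ribosomal protein gene rps14, was at 2.01, 1.96 and 1.94 in pkl-1 and at 1.98, 2.00 and 1.87 in wild type. The groups overlapped. The difference was 0.021 ± 0.10 (SE), with a 95% interval from -0.21 to 0.26.

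A single measured member acts in plastid splicing. OTP70 is needed to remove the intron of rpoC1, which encodes a subunit of the plastid RNA polymerase. Its signals were 2.68, 3.20 and 3.35 in pkl-1 and 2.72, 2.72 and 3.19 in wild type, with replicate 3 highest in both genotypes. The arrays of the genotypes overlapped. The difference was 0.20 ± 0.23 (SE), with a 95% interval from -0.33 to 0.73 (limma adjusted p = 0.757).

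The measured mitochondrial factors were OTP87 and OTP43. OTP87, an E-type editing factor for sites in nad7 and atp1, which encode subunits of complex I and of the ATP synthase, was at 3.27, 4.66 and 3.75 in pkl-1 and at 3.15, 4.03 and 3.53 in wild type. In both genotypes replicate 2 was highest and replicate 1 lowest, and the genotypes overlapped widely. The difference was 0.32 ± 0.38 (SE), with a 95% interval from -0.55 to 1.19; with the replicate number as a block its standard error was 0.20 and its limma adjusted p was 0.434, against 0.765 without the block. Without pkl-1 replicate 2 the estimate was -0.060.

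OTP43 is required for trans-splicing of nad1, in which separately transcribed pieces of a complex I transcript are joined. It was at 2.69, 3.09 and 3.24 in pkl-1 and at 3.08, 2.78 and 3.08 in wild type, with pkl-1 arrays below and above those of wild type. The difference was 0.029 ± 0.20 (SE), with a 95% interval from -0.42 to 0.48.

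For 6 of the 8 genes the 95% interval of the difference excluded a 2-fold change of the measured signal in either direction. The means of these 6 were low, from 1.80 for OTP80 to 2.99 for OTP43. Differences at such levels can be compressed, so that the intervals do not bound the amount of transcript. The intervals of OTP81 and OTP87 did not exclude a 2-fold rise. The plot of differences shows plastid and mitochondrial factors overlapping in their intervals; a difference between the classes was not tested.

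**Figure D3:**
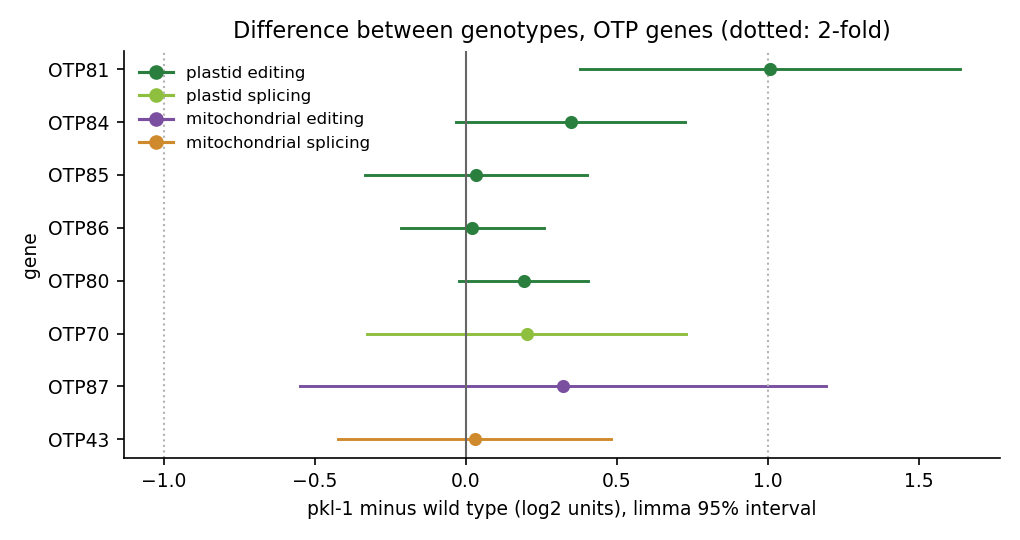
Difference between pkl-1 and wild type in log2 units (horizontal axis) for the 8 OTP genes, coloured by organelle and step; points are limma estimates from 3 arrays per genotype and lines are unadjusted 95% intervals. Only the interval of OTP81, from 0.38 to 1.64, leaves out 0, and those of OTP81 and OTP87 reach past 1.

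Across the 6 arrays the OTP genes were compared by a distance that depends on the size of their spread as well as on its pattern. When each gene's values were centred on its own mean, the root mean square distance to the nearest other member was 0.11 log2 units for OTP80 and OTP86, which were nearest to each other, 0.14 for OTP84 (nearest to OTP80) and for OTP85 (nearest to OTP86), and 0.17 for OTP43 and OTP70. OTP81 and OTP87 stood apart, at 0.44 from OTP84 and 0.45 from OTP70. Small distances among the dim genes also reflect their small spread, and the large distances of OTP81 and OTP87 their wider spread over the arrays.

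The median centred profile of the family was 0.055, 0.11 and 0.19 in pkl-1 replicates 1 to 3 and -0.19, -0.15 and -0.075 in wild type. The genes nearest to it, among those with a mean signal at or above the median of all probe sets, were AT5G19630, AT3G25150, AT2G10940, AT3G07890 and AT5G56900, at distances of 0.026 to 0.046 log2 units over 6 arrays. Their differences were 0.20 to 0.29 log2 units and none passed the test, with limma adjusted p of 0.203 to 0.440. These genes were picked by the same array values, so that the direction and size of their differences follow from the choice.

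Other nuclear-encoded factors for organelle RNA were covered thinly and also gave no call. Of 149 names in 6 lists, 10 genes were measured: 4 plastid and 1 mitochondrial editing factors, 3 plastid splicing factors and 2 factors for transcript ends and stability, while 0 editing cofactors and 0 mitochondrial splicing factors had a named single-gene probe set. With limma 0 of 10 passed over all probe sets, where 2.37% did, and 1 of 10 had an unadjusted p under 0.05, where 14.9% of all probe sets did. Estimates were above 0 for 7 of 10, beside 52.5% of all probe sets, with a median of 0.22 log2 units.

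In the plastid splicing list all 3 estimates were above 0. CAF1, which works with CRS2 in splicing of plastid group II introns, was at 7.56 ± 0.12 in pkl-1 against 7.02 ± 0.18 in wild type (SD, n = 3 each), and its pkl-1 arrays all lay above those of wild type. Its difference was 0.54 ± 0.14 (SE; limma adjusted p = 0.110); it was named after its values were seen. The brightest of that list, the CRM-domain gene CFM3A, was at 0.24 ± 0.19 and its relative CFM3B at 0.27 ± 0.19.

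Plastid editing factors went both ways, from -0.18 to 0.45 log2 units. CRR21, a factor for ndhD and the brightest of them, was at -0.12 ± 0.24 (SE), and CRR22 at 0.45 ± 0.22. The only mitochondrial editing factor measured, MEF8S, was at 0.24 ± 0.21, and PPR336, a PPR protein of mitochondrial ribosomes, at 0.20 ± 0.14. In all 9 list members other than CAF1 the arrays of the genotypes overlapped. Over all probe sets, the pkl-1 arrays all lay above those of wild type in 10.6%, as they did for CAF1. The share with all pkl-1 arrays below was not computed, so that the count of overlaps has no matching share.

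Transcripts on which OTP proteins act were measured only for plastids. The list of organelle-encoded targets had 22 names, and 11 plastid genes were measured. Among them is rpl16, a symbol found in both organelles, and its plastid gene is linked here to no OTP gene. With limma 0 of the 11 passed, beside 2.37% of all probe sets. At an unadjusted p under 0.05 there was 1 of 11, ycf3, where 14.9% of all probe sets passed. The estimates of 8 of 11 were above 0, beside 52.5% of all probe sets, and their median was 0.06 log2 units. These values are signals captured by the probe sets. How far they follow the amount of a plastid transcript was not tested, and they do not show whether a transcript was edited or spliced.

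Of the transcripts linked to OTP81, matK, the gene of a plastid splicing factor, was at 11.68 ± 0.08 in pkl-1 against 11.48 ± 0.23 in wild type (SD, n = 3 each), a difference of 0.20 ± 0.11 (SE; limma adjusted p = 0.478). The transcript accD, which encodes a subunit of acetyl-CoA carboxylase, was at 0.10 ± 0.09, and rpoB, of the plastid RNA polymerase, at 0.21 ± 0.20. None of these 3 passed the test.

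Of those linked to OTP84, psbZ, a photosystem II subunit, was at 0.040 ± 0.07 log2 units, with signals of 11.66 ± 0.06 and 11.62 ± 0.08 (SD, n = 3 each). The NDH subunit transcript ndhF was at 0.35 ± 0.21, at low signals of 2.19 in pkl-1 against 1.84 in wild type. For OTP85, ndhD was at -0.033 ± 0.07, with a 95% interval from -0.19 to 0.12.

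For OTP86, rps14 was at -0.31 ± 0.22 log2 units (limma adjusted p = 0.585), and for OTP70, rpoC1 was at -0.16 ± 0.10 (limma adjusted p = 0.518). These estimates were below 0 where those of the factors were 0.021 and 0.20, but no difference of a factor or target here passed the test. The transcript ycf3, which is spliced with the help of OTP51, was at 0.25 ± 0.10 (limma adjusted p = 0.301). The brightest plastid probe set of the list was that of rpl16, not linked here to an OTP gene, at 0.06 ± 0.09.

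**Figure D4:**
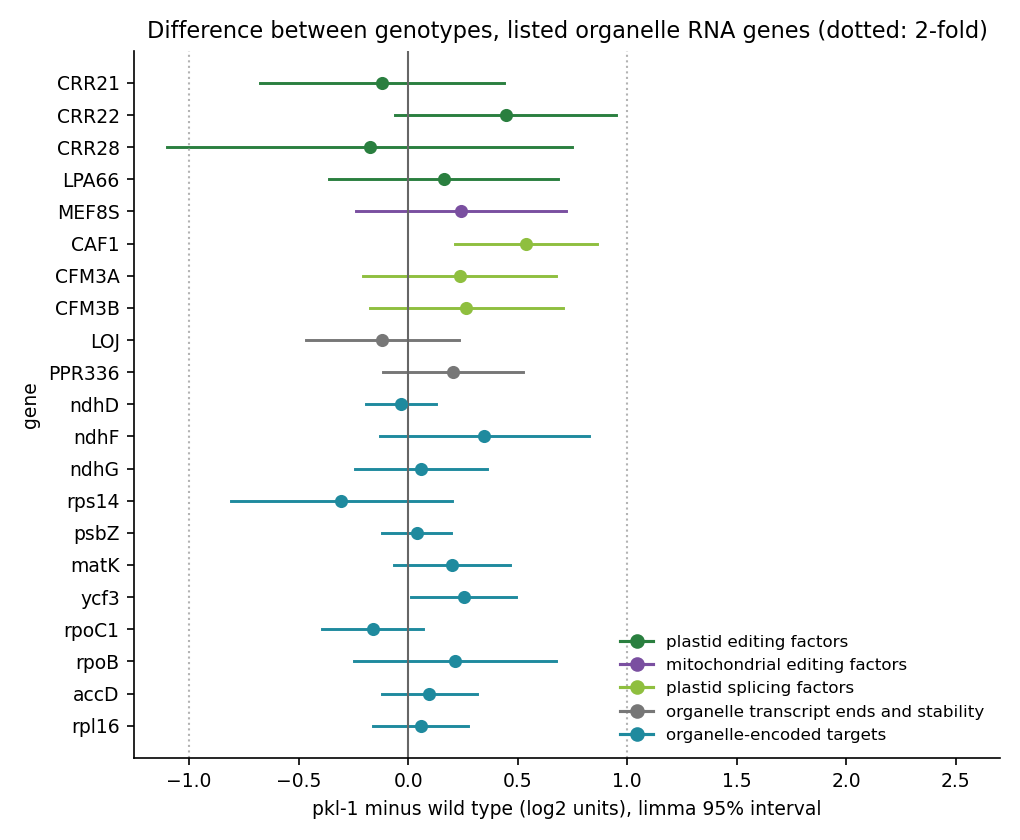
Difference between pkl-1 and wild type in log2 units (horizontal axis) for 10 nuclear genes of organelle RNA factors and 11 plastid-encoded transcripts, coloured by list; points are limma estimates from 3 arrays per genotype and lines are unadjusted 95% intervals. The intervals of CAF1 and ycf3 leave out 0, and none of the 21 genes passed the test over all probe sets.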

How the data were processed

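The authors deposited log2 signals for 22810 probe sets on 6 arrays, 3 per genotype, computed with GCRMA per the submitters' processing notes. No source used here gives its version, the genome build or the annotation. That the scale is log2 was inferred from the range of 0.597 to 13.7. GCRMA can leave dim probe sets at low values with compressed differences. After removal of 64 control probe sets, 22746 were tested with no filter on signal.

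In the platform annotation 13513 probe sets matched 1 gene, 503 matched several, and 8730 had no name here. Their symbols come from the TAIR10.1 gene table, which held a locus for 13436; no coordinates are given. The test was limma 3.58.1 under R 4.3.3, with lmFit and an eBayes prior that depends on the mean, 2-sided. Adjusted p-values follow Benjamini and Hochberg over the 22746 probe sets, and a call needs one under 0.05. Errors of differences are moderated standard errors, and intervals are unadjusted. Arrays have no read depth; their number limits the precision, and the median standard error of a difference was 0.156. In a simulation of this comparison on 22746 probe sets with 200 changed, 54% of 2-fold and 88% of 4-fold changes were recovered. The changed probe sets were drawn from those above the lower quartile of means, and compression of dim signals was not simulated. These shares thus do not cover OTP80 and OTP86, and recovery at the signal levels of the other OTP genes was not estimated.

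The members and the lists were chosen with earlier results of these data known. A list member was used if a single-gene probe set measured it. Named were every measured OTP gene, up to 4 rises and 4 falls of each list among members that passed or else its brightest member, the brightest marker of each tissue, and the 5 genes nearest to the family's median profile. The genes CAF1, CFM3B, CRR22, EXPA18, EXPA7, the neighbours of OTP genes and the plastid-encoded transcripts other than rpl16 were named outside that rule. Alternatives were an eBayes prior with no trend or a robust one, removal of dim probe sets, quantile normalization, median centring, weighting of arrays, a replicate block, and each array left out in turn. Plots used matplotlib 3.10.9 (Python 3.11.15).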

Additional observations from a re-analysis of the deposited data

How the results depend on the processing

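No OTP gene and no member of the organelle RNA factor lists passed under any of the 13 alternatives tried; the lowest adjusted p of an OTP gene was 0.0662. Of 102 values of single OTP genes under these alternatives, 9 in 4 genes turned their sign. OTP86 was at -0.0084 log2 units after quantile normalization, and with 1 array left out it ran from -0.019 to 0.046, OTP43 from -0.087 to 0.19, OTP85 from -0.061 to 0.18 and OTP87 from -0.060 to 0.63; none of these 4 passed the test in any setting, and the cause was not tested. With 1 array left out the other members kept their sign, at 0.71 to 1.199 for OTP81, 0.29 to 0.44 for OTP84, 0.17 to 0.21 for OTP80 and 0.064 to 0.40 for OTP70. The median of the 8 genes was then 0.085 to 0.26, lowest without pkl-1 replicate 2. Leaving out dim probe sets removed OTP80 and OTP86. Averaging several probe sets of a gene was not run, since each gene had 1.

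Over all probe sets the 540 calls became 123 to 303 with 1 array left out, where fewer arrays lower the power, and 470 to 652 under the settings that kept all arrays and had no block. A replicate block raised this to 1518 probe sets, among them 0 OTP genes. No label ties equal replicate numbers to a shared batch, so that the main fit did not pair the arrays. Deviations from the genotype means correlated at 0.49 for replicates 1, -0.0175 for replicates 2 and 0.58 for replicates 3. Whether arrays of equal number shared a batch was not tested, and the 540 calls hold for the fit without a block. Low signal is a limit for the family, as all 8 means lay under the median of all probe set means, 5.09 log2 units. That of OTP81 was close to this median, at 4.87. Low signal weighs most on OTP80 and OTP86, whose means lay under the lower quartile of the array. The 3 arrays per genotype limit the precision for all 8 genes.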

Other observations

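The genes next to the OTP genes in the gene table also gave no call. Of 16 nearest protein-coding neighbours 12 were measured, 0 passed with limma over all probe sets, where 2.37% did, and 3 had an unadjusted p under 0.05, where 14.9% of all probe sets did. AT4G25260, beside OTP70, was at -0.53 ± 0.17 log2 units (SE), AT5G59190, beside OTP80, at 0.50 ± 0.17 and AT1G74620, beside OTP87, at 0.31 ± 0.09; the probe sets of AT5G59190 and AT1G74620 were dim, with means of 1.83 and 1.15 log2 units over the 6 arrays. The neighbours of OTP81 were at 0.015 ± 0.21 for UGT71C1, a glycosyltransferase gene, and at 0.11 ± 0.12 for AT2G29770. ARR15, a cytokinin response regulator gene beside OTP43, was at 0.26 ± 0.26. OTP87 and OTP43 lie on the same chromosome with 29 protein-coding genes between them in the table.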
